A study of Mus musculus with 8 samples.

Results

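Of 12594 genomic regions at which CMS-IP signal differed between Ogt-deleted and control mouse embryonic stem cells, 18 lay in the 3 genes of the SoxD group of transcription factors. Sox5 held 14 of them, Sox6 held 3 and Sox13 held 1. All 17 regions in Sox5 and Sox6 were higher in the knockout, and the single region in Sox13 was lower. Of the 12594 regions, 68.1% were higher. A region was assigned to a gene when its midpoint fell within the mm10 span of the gene extended by 1 kb at both ends. Sox5 was selected on the number of its higher regions, which earlier results of these lists had placed among the largest, and Sox6 and Sox13 were added as its relatives. For Sox5, the number of regions, their density and their direction are given as a description and were not tested.

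CMS-IP recovers fragments that carry 5-hydroxymethylcytosine (5hmC), the oxidised form of 5-methylcytosine made by the TET enzymes: bisulfite turns 5hmC into cytosine 5-methylenesulphonate, which an antibody then binds. The cells were embryonic stem cells homozygous for floxed Ogt (Ogt fl/fl), which encodes O-GlcNAc transferase and lies on the X chromosome. Knockout cells (Ogt iKO) received 4-hydroxytamoxifen (4-OHT) for 6 days and were sorted for YFP, whereas control cells carried the same floxed alleles, received no 4-OHT and were also sorted away from the feeder fibroblasts. Each condition gave 2 CMS-IP libraries and 2 input libraries, 8 samples in 4 groups. Since all knockout cells had 4-OHT and the YFP sort and no control cells did, effects of these and of the deletion cannot be told apart. The driver of the recombinase is not given in the sources used here, and no label says whether replicates came from separate cultures.

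The deposited data are the authors' 2 lists of regions, 8578 higher and 4016 lower in the knockout, with positions only. Fold changes, levels per library, read depth and the spread between replicates are therefore unknown, and none of the values below carries a replicate error. Regions of the same gene come from the same libraries and are not replicates of each other. With no expression values, the labelled cell type could not be checked against its markers, and whether the 3 genes were transcribed in these cells was not measured.

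SOX proteins bind DNA through an HMG box, which fits into the minor groove and bends the helix. The SoxD proteins SOX5, SOX6 and SOX13 also carry a coiled coil through which they pair with each other, and they lack an activation domain of their own, so that they act by helping or hindering other factors. SOX5 and SOX6 work with SOX9 in the formation of cartilage. SOX5 also acts in deep-layer neurons of the cortex, SOX6 in the silencing of embryonic globin and in muscle, and SOX13 in gamma delta T cells. In embryonic stem cells, 5hmC is known to be common in gene bodies and at enhancers.

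The sequences shown here are windows from 250 bp before to 50 bp after an annotated start site, from RefSeq on GRCm38.p6, the assembly of mm10. They were chosen because they are the start sites in the table closest to a region in Sox5 and in Sox13. All 3 members and 4 of the 6 noncoding genes nested in Sox5 were found in the table. The only Sox5 start site listed is the one inside the gene, so the 5′ end of its span has no window. Capitals mark CG dinucleotides, in which most cytosine methylation and hydroxymethylation of mammalian DNA occurs.
Sox5, start site inside the gene, chr6:143947057-143947356, minus strand: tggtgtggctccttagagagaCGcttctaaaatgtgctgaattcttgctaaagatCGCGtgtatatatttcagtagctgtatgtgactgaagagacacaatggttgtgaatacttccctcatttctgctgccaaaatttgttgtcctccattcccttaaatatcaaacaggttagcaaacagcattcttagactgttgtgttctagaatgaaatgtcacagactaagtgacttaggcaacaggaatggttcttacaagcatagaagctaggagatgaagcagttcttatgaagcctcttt
Gm52484, a lncRNA gene nested in Sox5, chr6:143893340-143893639, plus strand: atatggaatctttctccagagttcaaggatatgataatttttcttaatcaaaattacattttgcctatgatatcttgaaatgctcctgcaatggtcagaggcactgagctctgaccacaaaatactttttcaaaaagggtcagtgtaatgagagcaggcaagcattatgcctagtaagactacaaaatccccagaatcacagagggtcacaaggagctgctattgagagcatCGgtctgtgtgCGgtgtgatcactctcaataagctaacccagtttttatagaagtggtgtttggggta
Sox13, chr1:133424163-133424462, minus strand: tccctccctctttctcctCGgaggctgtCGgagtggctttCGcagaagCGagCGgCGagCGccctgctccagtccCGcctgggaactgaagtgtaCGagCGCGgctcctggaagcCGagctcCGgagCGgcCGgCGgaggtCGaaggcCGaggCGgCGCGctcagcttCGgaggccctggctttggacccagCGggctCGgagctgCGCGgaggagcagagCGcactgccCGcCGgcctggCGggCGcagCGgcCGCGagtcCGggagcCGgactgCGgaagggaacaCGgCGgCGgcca

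The windows differ in base composition, and that of Sox5 is not from the 5′ end of the gene. The Sox5 window holds 3 CG dinucleotides at 39.7% G+C, and the Gm52484 window holds 2 at 40.3% G+C, both below the median of 7 over 32851 windows of the same length. By contrast, the Sox13 window holds 40 at 73.3% G+C, more than 96.1% of all windows. For Sox6 the table lists 6 start sites with 2 to 13 CG dinucleotides. At least 1 CG dinucleotide, which reads the same on both strands, was present in 94.6% of all windows. The letters ACAAT, a core of sites bound by SOX proteins, were searched on both strands (as ACAAT and ATTGT). They occur once in the Sox5 window, in 3 of the 6 Sox6 windows and in neither the Gm52484 nor the Sox13 window, and 31.0% of all windows hold them. These are matches of letters only.

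No region of either list overlapped any of these windows. None of the 18 regions in the 3 genes overlapped a start-site window in the table, nor did any of the 20 regions in their flanks. The table is not complete. It has no window at the 5′ end of Sox5, and Gm52485 and Gm51455, which hold regions, have no entry. Such overlap was rare in the lists as a whole, with 95 of 8578 higher regions (1.11%) and 52 of 4016 lower regions (1.29%).

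Sox5 lies on chromosome 6, 143828425 to 144782287, and is transcribed from the minus strand, so that its 5′ end is the higher coordinate. Its span of 954 kb ranks 64 among 21774 protein-coding genes. At least 1 higher region was found in 15.3% of all protein-coding genes and in 73.1% of the 227 genes that span 500 kb or more, so holding a higher region is common for a gene of this length. At least 1 lower region was found in 8.51% of all protein-coding genes and in 51.1% of the long ones. With 14 higher regions and 0 lower regions, Sox5 ranked 2 by number of higher regions. Scaled to length, it held 14.6 higher regions per Mb of extended span, the highest value among the 227 long genes, whose median was 1.93 per Mb (interquartile range 0 to 4.38). The autosomes as a whole held 3.56 higher and 1.65 lower regions per Mb. Of both lists together, 68.1% of the regions were higher.

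**Figure D1:**
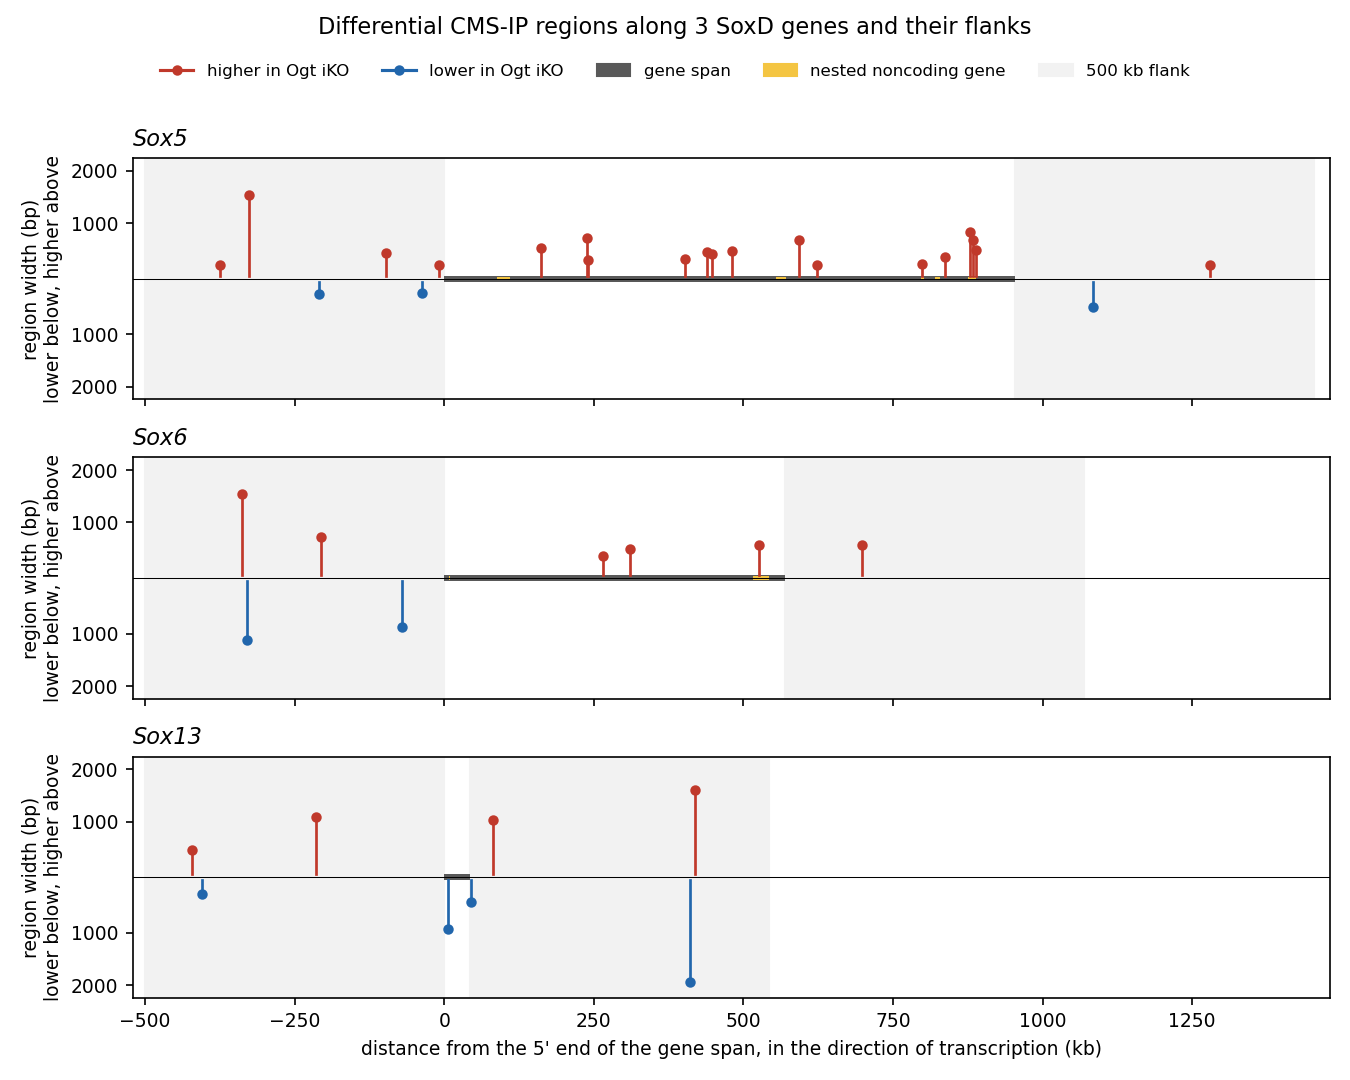
Each lollipop is a region, placed by the distance of its midpoint from the 5′ end of the gene span (kb, direction of transcription to the right), with its width in bp as the height, above the line where higher and below where lower in Ogt iKO cells. The 14 regions in Sox5 and the 3 in Sox6 all point up, the 1 in Sox13 points down, and the 500 kb flanks (grey) hold both directions.

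Along Sox5, the 162 kb next to the 5′ end held no region, and inner stretches of 161 and 175 kb were also empty. The region closest to that end, chromosome 6, 144620141 to 144620661 (521 bp), lay 162 kb inside the gene. It was followed by a close pair at 239 and 241 kb from the 5′ end, of 721 bp (144543266 to 144543986) and 307 bp (144541457 to 144541763), separated by 1502 bp. With the span cut into 4 equal parts of 238 kb, from the 5′ end onwards, the numbers of higher regions were 1, 5, 3 and 5. The 721 bp region sits at the border of the first and second parts and was counted in the second.

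A looser series lay near the middle of the gene. It comprised regions of 326 bp (144380172 to 144380497), 447 bp (144343338 to 144343784), 410 bp (144334318 to 144334727) and 478 bp (144301453 to 144301930), which spread from 402 to 481 kb from the 5′ end. The middle pair of these was 8.61 kb apart. Further along came a 678 bp region (144189323 to 144190000) at 593 kb and a 200 bp region (144158817 to 144159016) at 623 kb. At 200 bp, the last of these has the smallest width found in either list. Past it came the widest empty stretch between regions of the gene, 175 kb.

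The part nearest the 3′ end of the gene held 5 regions, with 3 of them close together. After a 223 bp region (143983432 to 143983654), which lies within the lncRNA gene Gm52485, a 359 bp region (143945554 to 143945912) began 1194 bp downstream of the internal Sox5 start site printed above. Then 3 regions of 837 bp (143903375 to 143904211), 690 bp (143897618 to 143898307) and 497 bp (143894047 to 143894543) followed within 10.2 kb. All 3 lie within the lncRNA gene Gm52484, which spans 12.9 kb (143893590 to 143906474). Gm52484 is transcribed from the plus strand, against the direction of Sox5, and its start site lies 457 bp from the nearest of the 3. The remaining 65.6 kb up to the 3′ end of Sox5 held 0 regions.

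Nested noncoding genes thus held 4 of the 14 Sox5 regions. There are 6 such genes in Sox5, which together make up 6.86% of its span and held 28.6% of its regions. Of these regions, 3 form a single close group of 10.2 kb in Gm52484. The other 4 nested genes, among them Sox5os3 and Sox5os4, held 0 regions. The share of all higher regions that lie in nested noncoding genes was not computed. CMS-IP does not assign signal to a transcript, so a region in a nested gene belongs to both genes. The gene table gives spans and no exons, and whether a region is exonic or intronic was not determined.

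Regions in Sox5 were closely spaced. The gaps between neighbours ran from 1502 bp to 175 kb with a median of 36.4 kb, against a median of 140 kb between neighbouring higher regions genome-wide. Of the 13 gaps, 4 were under 10 kb (30.8%), compared with 5.54% of the 8557 gaps of the higher list. Counted by region, 7 of 14 had another higher region within 10 kb, against 10.6% of the list. Close spacing follows in part from the number of regions for which Sox5 was chosen. When regions within 10 kb were merged, 10 separate places remained. Merging within 100 kb left 4.

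**Figure D2:**
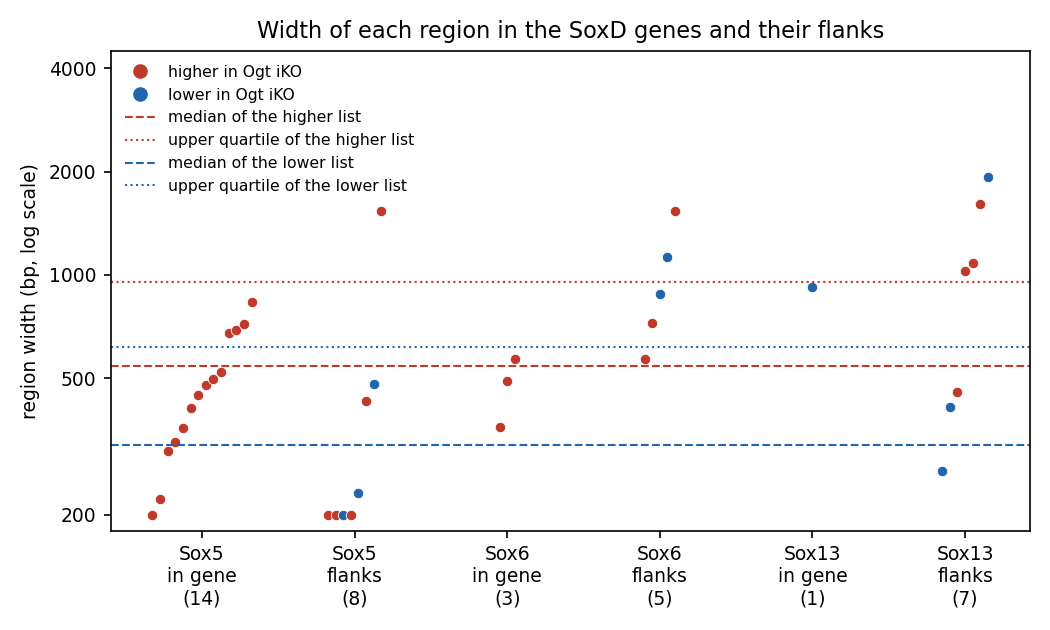
Each point is the width of a region (bp, log scale) inside a gene or in its 2 flanks of 500 kb, red where higher and blue where lower in Ogt iKO cells, with the number of regions in brackets; dashed and dotted lines give the median and upper quartile of each whole list. The 14 Sox5 regions run from 200 to 837 bp (median 462.5 bp) and all stay under the upper quartile of the higher list. The widest flanking region of each gene reaches 1534 bp or more. With both directions together, the median flank width is 216 bp at Sox5, 879 bp at Sox6 and 1024 bp at Sox13.

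Width was not used to choose the genes. The 14 regions in Sox5 spanned 200 to 837 bp with a median of 462.5 bp, and 10 of them were narrower than the median of the higher list, 541.5 bp (interquartile range 264 to 954 bp). None was wider than the upper quartile of that list. Only 1 of the 14 had the minimum width of 200 bp, the width of 13.9% of all higher regions. The regions of Sox5 were thus many and of middling width. They covered 6694 bp in all, 0.702% of the span, and when protein-coding genes were ranked by base pairs covered in place of regions, Sox5 fell from rank 2 to rank 32.

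Fewer annotated genes were counted around the Sox5 regions than around higher regions in general, by median. Sox5 itself spans 954 kb and so fills much of each window of 500 kb to either side. Whether its length accounts for the lower count was not tested. Regions in other long genes were not compared as a set, and those of Sox6 had 6 to 8 genes. Genes of any kind were counted by the lowest coordinate of their span, whatever their strand. By this count, 7 to 12 genes lay within 500 kb of each Sox5 region (median 10), including the nested ones. The median was 20 genes for all higher regions (interquartile range 13 to 28). At most 12 genes were found around 22.8% of all higher regions.

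Sox5 held no lower region, so the lower region nearest to each of the 14 lay outside the gene. The nearest lower region was 196 to 517 kb from each of the 14 (median 281 kb). Over the whole higher list the median was 166 kb, and 44.7% of higher regions were at least as far from a lower region as the closest of the 14. Along the chromosome, the 14 regions and the next higher region upstream formed a run of 15 higher regions with no lower region between them, over 0.897 Mb. Of 2662 such runs genome-wide, 22 held at least 15 regions, the longest held 25, and the median run held 2. Among those of at least 15, 2 runs, that of Sox5 included, were as dense as 16.7 regions per Mb. Sox5 was chosen for its many higher regions, so the length and density of its run follow in part from that choice.

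**Figure D3:**
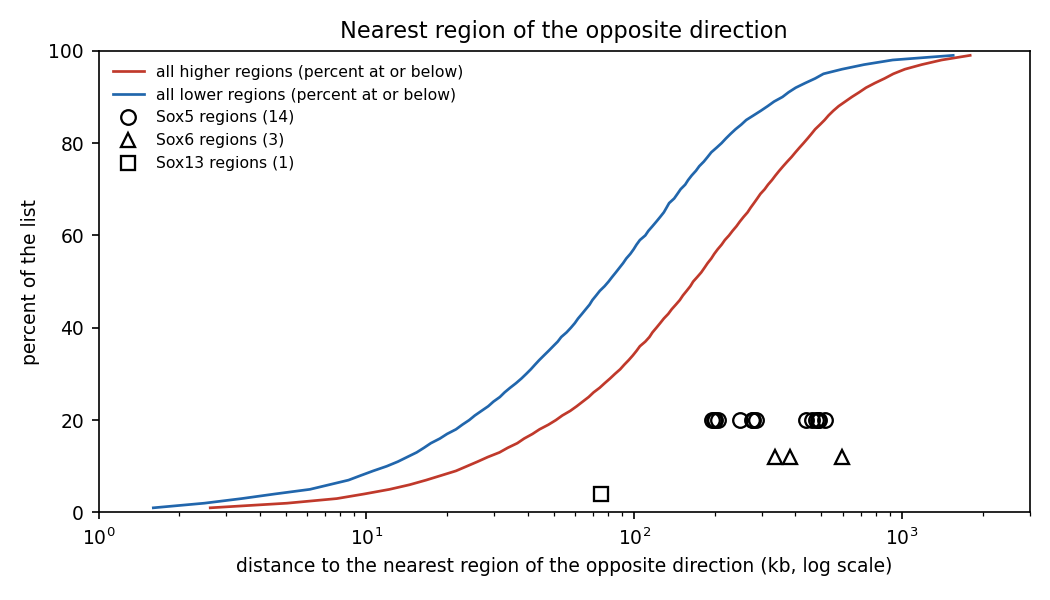
Lines give the percentage of all higher (red) and all lower (blue) regions that lie at or below a given distance (kb, log scale) from the nearest region of the opposite direction; symbols mark the regions in each SoxD gene by their distance only, at an arbitrary height. The 14 Sox5 regions (circles) lie at 196 to 517 kb, and the Sox13 region (square) at 75.3 kb.

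The flanks of Sox5 held both directions. Within 500 kb beyond the 1 kb extension at either end there were 5 higher and 3 lower regions. On the upstream side, 4 were higher and 2 lower, and on the downstream side 1 was higher and 1 lower. This is 5.0 higher and 3.0 lower regions per Mb, against 14.6 and 0 in the gene. The balance in the flanks depended on their length: within 250 kb there were 2 higher and 3 lower regions, and within 1000 kb 9 higher and 3 lower. The region nearest to the gene but outside it was higher, 200 bp wide and 8.20 kb upstream of the 5′ end (144790392 to 144790591), within the lncRNA gene Gm32069. Next came a lower region of 200 bp (144819215 to 144819414), 28.6 kb beyond it. A further higher region, of 429 bp (144879954 to 144880382), lay in the lncRNA gene Gm32124, and a lower one of 232 bp (144991133 to 144991364) lay between genes. The widest region around Sox5 spanned 1534 bp (145108550 to 145110083, higher) and lay outside any gene span, 327 kb upstream. Of 5 other protein-coding genes within 500 kb, 1 held a region, and 20.5% of all protein-coding genes did. This was Lrmp, with a higher region of 200 bp (145157178 to 145157377). Downstream, a lower region of 481 bp (143697608 to 143698088) was the nearest to the 3′ end, and a higher one of 200 bp (143502717 to 143502916) lay farther out.

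Sox6, on chromosome 7 from 115470872 to 116040776 on the minus strand, spans 570 kb and held 3 higher and 0 lower regions. At 5.25 higher regions per Mb it ranked 50 of the 227 long genes. Its number is shared by many genes, since 191 protein-coding genes held exactly 3 higher regions. At least 1 higher region without a lower one was found in 26.9% of the long genes, and at least 3 without a lower one in 9.69%, Sox5 and Sox6 among them.

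The Sox6 regions were spread through the gene and lay away from the 5′ end. Starting from that end, a 360 bp region (115774653 to 115775012) lay at 266 kb, a 490 bp region (115729742 to 115730231) at 311 kb and a 570 bp region (115513966 to 115514535) at 527 kb. Of 4 equal parts of the span, the part next to the 5′ end held 0 regions and each of the others held 1. The last of the 3 regions lies in the nested lncRNA gene Gm51455. Of the 6 Sox6 start sites in the table, the nearest to any of them was 26.6 kb away. As in Sox5, widths were moderate: the median of 490 bp lies at the 46.2nd percentile of the higher list, and that of Sox5 at the 44.0th. Neighbours were 44.4 and 215 kb apart, with none within 10 kb. The nearest lower region was 336 kb or more from each of the 3, and 6 to 8 genes, counted as for Sox5, lay within 500 kb of them.

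In the flanks of Sox6, 3 higher and 2 lower regions were found. The region closest to the gene was lower, 879 bp wide and 71.0 kb upstream (116111314 to 116112192), outside any gene span. On the same side, Plekha7 held a higher region of 725 bp (116245929 to 116246653). Pik3c2a, which encodes a class II phosphoinositide 3-kinase, held a pair of opposite direction, a lower region of 1127 bp (116370048 to 116371174) and a higher region of 1538 bp (116378640 to 116380177), 7.47 kb apart. Both of these were wider than any region in Sox6. Downstream there was 1 higher region of 569 bp (115341936 to 115342504).

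Sox13, on chromosome 1 from 133382300 to 133424459 on the minus strand, is the shortest of the 3 genes at 42.2 kb. It held 0 higher regions and 1 lower region, at 133418177 to 133419097. Among protein-coding genes under 500 kb, 8.06% held at least 1 lower region and 14.7% at least 1 higher region. The Sox13 region was 921 bp wide, wider than 87.3% of the lower list, whose median was 319.5 bp. It lay 5115 bp downstream of the start site whose window is printed above, and 13.8% into the span. The region of Sox5 nearest to the 5′ end lay 17.0% into its much longer span, and that of Sox6 46.7%. Around the Sox13 region, 31 genes counted in the same way lay within 500 kb, and the nearest higher region was 75.3 kb away.

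The flanks of Sox13 held 4 higher and 3 lower regions. A second lower region, of 412 bp (133380247 to 133380658), had its midpoint 1.85 kb beyond the 3′ end of Sox13 and so just outside the extended span. It overlaps the 3′ end of Etnk2, an ethanolamine kinase gene that is transcribed towards Sox13. Extending the span by 5 kb in place of 1 kb would add it to Sox13, with 2 lower regions. Next on that side was a higher region of 1024 bp (133341847 to 133342870). Mdm4, which encodes an inhibitor of p53, held a higher region of 1613 bp (133004270 to 133005882) and a lower region of 1934 bp (133012055 to 133013988), 6.17 kb apart. Upstream, Zc3h11a held a higher region of 1081 bp (133638338 to 133639418). A lower region of 268 bp (133829785 to 133830052) and a higher region of 455 bp (133846375 to 133846829) lay beyond it, 16.3 kb apart and outside any gene span. Along this flank and gene, no more than 2 neighbouring regions shared their direction.

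**Figure D4:**
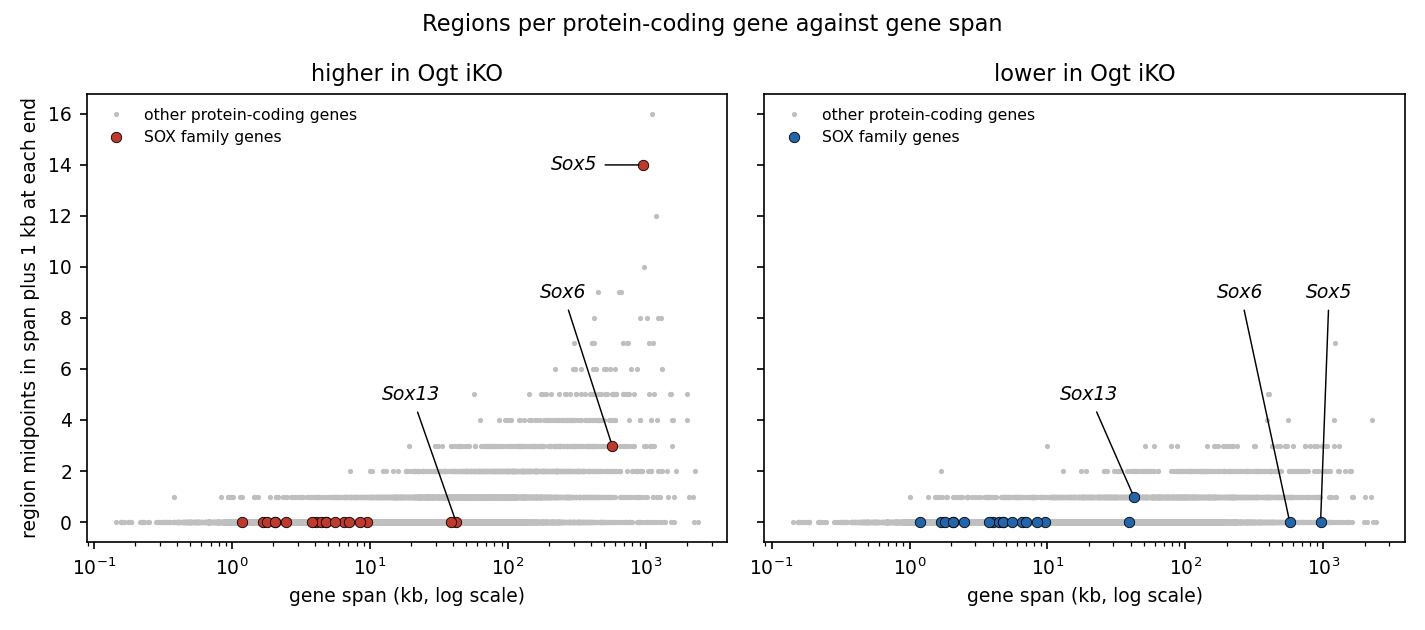
Each point is a protein-coding gene, placed by its span (kb, log scale) and by the number of higher (left) or lower (right) regions with a midpoint in its span plus 1 kb at each end; SOX family genes are coloured. Sox5 stands at 14 higher regions, Sox6 at 3 and Sox13 at 1 lower region, and the other 17 SOX genes lie at 0 in both panels.

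No other gene of the SOX family held a region. The family was represented by 20 genes, of which 3 (15.0%) held a region of either list, all of them SoxD genes, against 20.5% of all protein-coding genes. Sox5 is counted among the 3 although it was chosen for its higher regions, so this share rests in part on that choice. The other 17 include Sox2, a core pluripotency gene, Sox17, which marks endoderm, and Sox9, the partner of SOX5 and SOX6 in cartilage. They are short, with a median span of 4.44 kb, compared with 17.2 kb for all protein-coding genes. Absence from both lists does not show that 5hmC stayed the same there, because which sites the authors tested, and at what depth, is unknown.

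Lists of genes known to act with or under SoxD factors were examined next. Of 31 such genes, 6 (19.4%) held a region, against 20.5% of all protein-coding genes; 5 held a higher and 2 a lower one. In the cartilage list, 3 of 14 genes did. Acan, which encodes the core protein of the main cartilage proteoglycan, held 1 higher region of 200 bp (chromosome 7, 79088125 to 79088324). Col11a1, a fibrillar collagen gene of cartilage, held 1 higher region of 593 bp near its 3′ end (chromosome 3, 114218924 to 114219516). Runx2, the regulator of bone formation, had 2 higher regions of 378 and 835 bp and 3 lower regions of 497, 200 and 200 bp within 319 kb, so that it carried both directions. Col2a1, a direct target of SOX9 with SOX5 and SOX6, held 0.

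In the list of genes of neurons and glia, 1 of 8 genes (12.5%) held a region, against 20.5% of all protein-coding genes. Among the others, Fezf2, Bcl11b and Tbr1, which act in the deep cortical layers, held 0 regions. In the blood list, 2 of 6 genes (33.3%) held a region, and both lists are too short to set these shares apart from that of all genes. Bcl11a, which silences fetal globin together with SOX6, held 1 higher region of 841 bp (chromosome 11, 24138666 to 24139506). Lef1, a TCF family factor, held 1 lower region of 236 bp just upstream of its 5′ end, within the 1 kb extension (chromosome 3, 131109246 to 131109481). The corepressor genes Ctbp1, Ctbp2 and Hdac1 held 0 regions.

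The genes most like Sox5 in these lists were genes of other families that span 450 kb or more. Likeness was the sum of the differences in the number of higher and of lower regions, over the 2 lists. Auts2 was nearest, with 16 higher and 1 lower regions in 1106 kb, at a distance of 3. Syn3, which encodes a synapsin of synaptic vesicles, followed with 9 higher and 0 lower regions at a distance of 5, and its density of 19.9 higher regions per Mb in 450 kb exceeded the 14.6 of Sox5. Sdk1 (10 higher and 2 lower), Cdh13 (12 and 4) and Cdkal1 (9 and 1) each came at a distance of 6. Grip1 (9 and 1) tied with them and was placed after them because ties were broken by the difference in span. Among the 227 genes of at least 500 kb, Sox5 was followed in density by Auts2 at 14.4 and Grip1 at 14.2 higher regions per Mb, so that its lead over them was small. Of these long genes, 10 (4.41%) held at least 5 higher regions and no lower region.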

How the data were processed

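CMS-IP and input libraries from Ogt iKO and control cells were made in 2 replicates each. The authors deposited 2 lists of regions in BED form, named for the direction of change and for mm10. The names write the knockout as OgtiTKO, where the labels have Ogt iKO; both were read as the same knockout, and each statement of higher or lower rests on that. The lists hold coordinates and no measured value, other than which list a region is in. Bismark and MACS2 are named in the submitters' processing notes, without role or order. The differential test, its threshold and the use of inputs, spike-ins and replicates are not given in the sources used here. Neighbouring regions of either list were at least 1001 bp apart and none was under 200 bp, so width has a floor and close regions may have been joined.

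BED starts were read as counting from 0 and converted to positions counting from 1. The spans of genes are those of RefSeq on GRCm38.p6 (49595 genes on chromosomes 1 to 19, X and Y, of which 21774 are protein-coding; genes on scaffolds and patches were left out), strand and start sites from its promoter table. Counts used region midpoints in spans extended by 1 kb, and flanks of 500 kb. Named genes were the 3 members, genes in their flanks or in the SOX and SoxD lists that held a region, and the 5 genes most like Sox5 (ties broken by the smaller difference in span); 1 gene selected by this rule is not reported here. Genes named at 0, and Grip1, were chosen after their values were seen. The members and lists were chosen with earlier results of these data known, and no test was made. No protein sequences or genome were used here, so a planned protein comparison was left out. The counting was tested on simulated data with planted regions. Python 3.11.15, numpy 2.4.6, pandas 2.3.3 and matplotlib 3.10.9 were used.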

Additional observations from a re-analysis of the deposited data

How the results depend on the processing

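Across 16 results and 74 recomputed values, 59 stayed within 1.5 times of the reported value and 15 moved further; the 59 include counts of 0 that most settings could not change. The number of higher regions in Sox5 was 7 when only the wider regions (453 bp, the joint median, or more) were counted and 4 when regions within 100 kb were merged, both of which remove regions by construction; leaving out the 3 regions in Gm52484, a setting chosen after seeing the data, left 11. The number of lower regions in Sox13 was 2 with spans extended by 5 or by 10 kb, since both take in the region at the end of Etnk2. Lower regions in Sox5 and Sox6 stayed at 0 in all settings tried. Counts in the flanks grew with the length of the flank, which can only add regions, except for the lower regions around Sox5, which numbered 3 within 250, 500 and 1000 kb, so that lower regions outnumbered the 2 higher ones within 250 kb; and the rank of Sox5 moved as given above. With no read counts, depth and fold change limit every statement here. No paired analysis was possible because positions are all that was deposited, with nothing measured per library; leaving out a replicate could not be done either.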
